A study of Mus musculus with 2 samples.

Results

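Isl1 progenitors are here the cells of a control culture that held Isl1 transcripts but had not yet reached a high level of cardiac actin. The culture came from the mouse embryonic stem cell line D3 and was read on day 6 of its differentiation towards cardiomyocytes. The progenitors were selected on their own counts. A cell needed at least 15000 UMIs (molecular identifiers, each marking 1 captured RNA molecule), 500 or more genes, and no more than 10% of its UMIs from mitochondrial genes. It then needed at least 2 Isl1 UMIs, less than 150 CPM of Actc1 (counts scaled to a total of 1000000 UMIs per cell), fewer than 3 UMIs of Dcn plus Lum, and no UMI of Cdh5 or Upk3b. The rule picked 1165 of 6354 control cells, or 18.3% (exact Clopper-Pearson interval 17.4 to 19.3), out of 15803 cells in the whole series. Of 2218 control cells with at least 2 Isl1 UMIs, 416 failed on Actc1, 124 on Dcn plus Lum, 154 on Cdh5 and 592 on Upk3b, and a cell could fail on several.

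The study set a Zbtb16 knockout of the D3 line against the wild-type line, called WT or Ctrl in the labels, at the same day and under the same differentiation treatment. Each genotype has 1 droplet library, so the differences lack a replicate check and were not tested. The sources used here do not give whether the knockout is 1 clone or which part of the gene was removed. All intervals are exact 95% intervals that cover counting error only. The control library gave 6354 cells with a median of 37324 UMIs, and the knockout library 9449 cells with a median of 30513 UMIs. The same 16 cell barcodes occurred in both libraries, and 2 of them belong to progenitors.

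Isl1 encodes a LIM homeodomain transcription factor. In the embryo it marks the second heart field, a pool of mesodermal progenitors in and near the pharyngeal region that adds cells to the outflow tract, right ventricle and atria as the heart tube grows. Progenitors of its anterior portion border on pharyngeal and head muscle lineages and are known for Tbx1, Fgf8 and Fgf10, whereas those of the posterior portion are known for Tbx5, Nr2f2 and Hox genes. Isl1 is lowered as most of these cells become beating muscle, and it also acts in motor neurons, hind limb mesoderm and pancreas.

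Because the rule read Isl1, Actc1, Dcn, Lum, Cdh5 and Upk3b, the levels of these 6 genes are no finding, and every other difference between the progenitors and the remaining control cells is a description of cells chosen by those counts. The progenitors held 48243766 UMIs with a median of 35418 per cell, and the 5189 other control cells a median of 37862. Among these others, 985 cells met every condition except that they had no Isl1 UMI (the Isl1-zero counterparts, median 30049 UMIs), and 851 cells had at least 150 CPM of Actc1 (the Actc1-high cells, median 31690). The same rule picked 290 of 9449 knockout cells (3.07%, 2.73 to 3.44; median 31346.5). UMIs were summed over the cells of a group and scaled to CPM, and ratios are log2 of CPM plus 1. A gene counts as higher or lower at 1.5-fold, and only genes that reach 5 CPM in 1 of the sums are compared.

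Isl1 itself stood at 122 CPM in the progenitors (119 to 125) and at 24.1 CPM in the other control cells. The median progenitor held 4 Isl1 UMIs and the highest 29, while 287 progenitors held exactly 2 and 125 held 10 or more. After every cell was thinned to 15000 UMIs, 85.4% of progenitors still had an Isl1 UMI, against 47.9% of Actc1-high cells. For background, an Isl1 UMI was found in 11.2% of 107 cells with at least 2000 CPM of endoderm genes (5.93 to 18.8, median 49874 UMIs before thinning) and in 7.42% of 539 cells with 10 or more Dcn plus Lum UMIs (5.35 to 9.97, median 49050 UMIs). Among 274 cells with 3 or more Cdh5 UMIs the share was 33.6% (28.0 to 39.5, median 54209.5 UMIs). Free RNA in barcodes of 10 to 100 UMIs contained 42.5 CPM of Isl1. At the border of the rule, the 287 progenitors with exactly 2 Isl1 UMIs had 43.8 CPM of Irx5 and 38.3 CPM of Igfbpl1, and the 433 cells just outside with 1 Isl1 UMI had 33.3 CPM of Irx5 and 21.3 CPM of Igfbpl1. At the other border, 54 progenitors with 100 to 150 CPM of Actc1 had 2417 CPM of Myl7, and 29 cells just outside, with 150 to 200 CPM of Actc1 and every other condition met, had 2062 CPM.

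The leading markers beside Isl1 were Alx1, Smyd1, Rbm24, Dach1 and Irx5. They were chosen with earlier results of these same data known, so counts and medians over them describe the choice and support nothing. These markers were higher in the progenitors than in their Isl1-zero counterparts in 5 of 5 cases. Their median log2 ratio was 1.25, against 0.026 over all genes tested. For scale, 2.23% of 10222 genes were higher and 3.00% were lower in this comparison. Irx5, an Iroquois homeodomain factor, stood at 65.9 CPM in the progenitors (63.7 to 68.3) and at 13.7 CPM in the counterparts. Dach1, a transcriptional cofactor that works with Eya proteins, stood at 45.4 CPM in the progenitors (43.6 to 47.4) and 12.5 CPM in the counterparts (11.4 to 13.8). Alx1, a paired-type homeodomain factor known from head mesenchyme, stood at 56.8 CPM in the progenitors and 23.3 CPM in the counterparts. Smyd1, a muscle methyltransferase needed for sarcomere assembly, stood at 108 CPM in the progenitors and 48.5 CPM in the counterparts, and Rbm24, an RNA-binding protein that directs muscle splicing, at 212 CPM in the progenitors and 93.7 CPM in the counterparts.

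Against the Actc1-high cells, 3 of these 5 markers were higher and 1 was lower in the progenitors, where 2.21% of 10187 genes were higher and 4.10% were lower, with a median log2 ratio of 0.041. Alx1, Dach1 and Irx5 were at least 1.5-fold higher in the progenitors than in the Actc1-high cells, with Alx1 at 56.8 CPM in the progenitors and 29.5 CPM in Actc1-high cells and Irx5 at 65.9 CPM in the progenitors and 11.8 CPM in Actc1-high cells. Rbm24 was lower in the progenitors, with 212 CPM against 396 CPM in the Actc1-high cells, and Smyd1 stood at 108 CPM in the progenitors and 156 CPM in Actc1-high cells, a log2 ratio of -0.52 that does not reach 1.5-fold. Among thinned cells, 43.4% of progenitors had an Irx5 UMI, against 13.4% of Isl1-zero counterparts and 8.58% of Actc1-high cells. Rbm24 was found in 80.4% of progenitors, against 53.1% of Isl1-zero counterparts and 94.8% of Actc1-high cells.

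**Figure D1:**
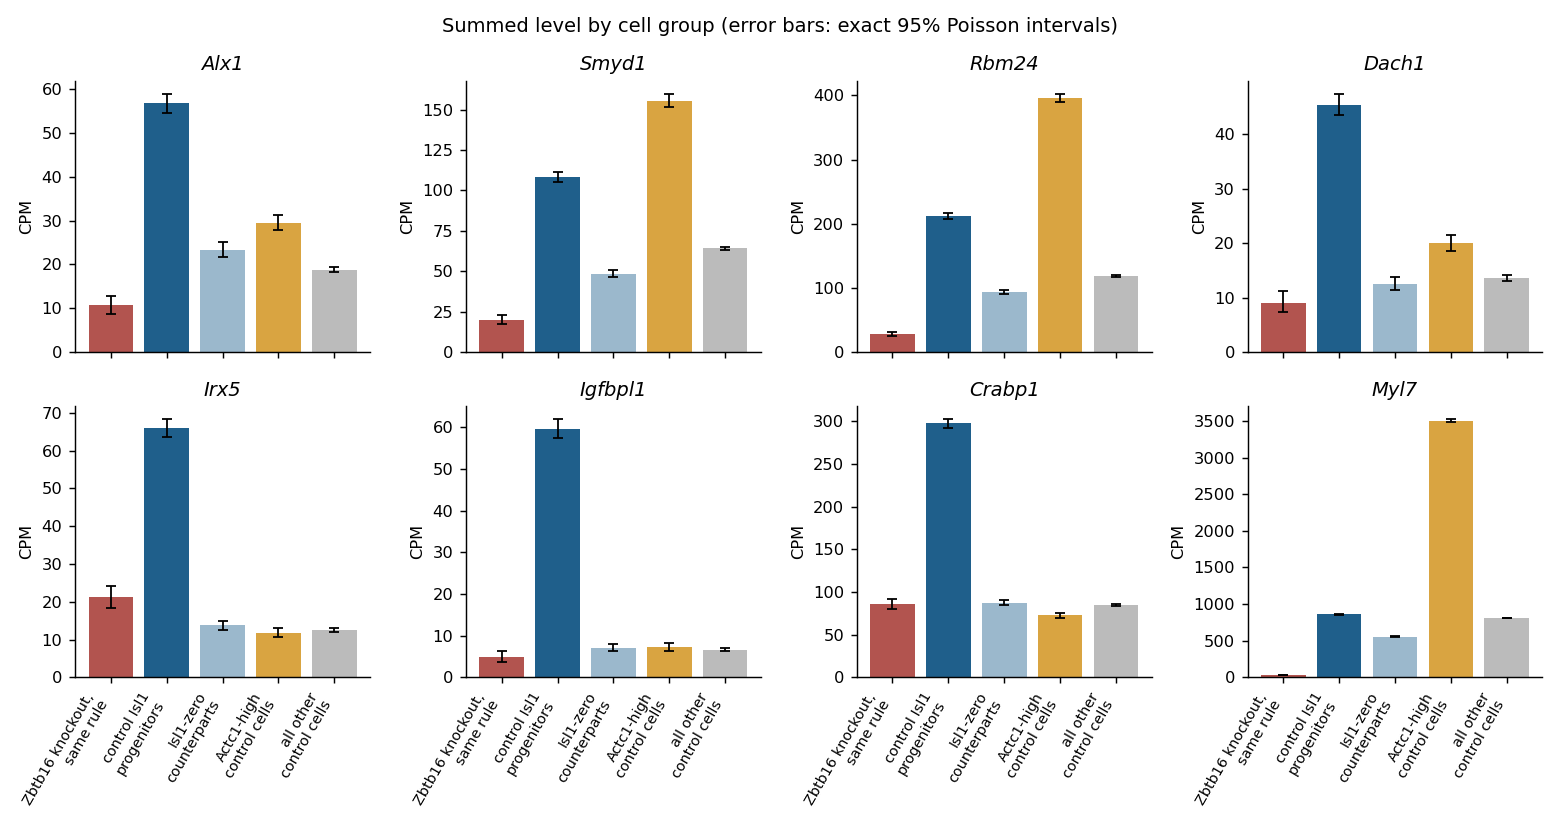
Summed levels in CPM of 5 leading markers, Igfbpl1, Crabp1 and Myl7 (bars, each with an exact 95% Poisson interval) in knockout cells picked by the same rule, the Isl1 progenitors, their Isl1-zero counterparts, the Actc1-high cells and all other control cells. Irx5, Igfbpl1 and Crabp1 stand highest in the progenitors, while Rbm24, Smyd1 and Myl7 stand highest in Actc1-high cells.

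The promoters of Isl1, which defines these cells, and of Dach1, another leading marker, are shown as examples of the sequence in front of the leading genes. They come from RefSeq on build GRCm38.p6, where 4 of the 6 leading markers were matched in the table used here, and run from 250 bases before to 50 bases after the start of the gene. Capitals mark AGATAA, a core bound by GATA factors, and TAAT, the core shared by many homeodomain factors, each searched on both strands. The Isl1 window lies at chr13:116309639-116309938 on the minus strand and the Dach1 window at chr14:98169716-98170015 on the minus strand.
Isl1: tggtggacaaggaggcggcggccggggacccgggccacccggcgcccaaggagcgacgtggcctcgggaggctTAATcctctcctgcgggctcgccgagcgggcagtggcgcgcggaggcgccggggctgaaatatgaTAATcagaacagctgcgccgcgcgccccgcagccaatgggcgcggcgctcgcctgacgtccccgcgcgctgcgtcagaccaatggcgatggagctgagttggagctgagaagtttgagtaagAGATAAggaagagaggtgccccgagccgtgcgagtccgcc
Dach1: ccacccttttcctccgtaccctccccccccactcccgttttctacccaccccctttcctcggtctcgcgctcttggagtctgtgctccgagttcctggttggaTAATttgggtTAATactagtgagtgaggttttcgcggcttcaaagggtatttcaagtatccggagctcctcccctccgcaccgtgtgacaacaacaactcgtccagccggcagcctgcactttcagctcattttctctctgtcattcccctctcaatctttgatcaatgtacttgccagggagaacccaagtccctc
The Isl1 window holds 1 AGATAA match and 2 TAAT matches, and the Dach1 window 0 and 2, with 0 matches that overlap another. Of 32851 promoters of this length, 11.2% hold AGATAA and 58.0% hold TAAT, and the matches describe letters, not sites.

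Against all 5189 other control cells, 2.18% of 10164 genes were higher in the progenitors and 3.62% were lower, with a median log2 ratio of 0.036 over all of them. Among genes of at least 50 CPM, the largest ratio belonged to Igfbpl1, which encodes a protein related to the insulin-like growth factor binding proteins, with 59.7 CPM in the progenitors (57.6 to 62.0) and 6.66 CPM in the other cells (6.34 to 6.99). Crabp1, a cytosolic carrier of retinoic acid, stood at 297 CPM in the progenitors and 84.2 CPM in the others. Irx1 stood at 50.8 CPM in the progenitors and 13.2 CPM in the others, Irx3 at 103 CPM in the progenitors and 31.9 CPM in the others and Prrx1, a homeodomain factor of mesenchyme, at 52.7 CPM in the progenitors and 16.9 CPM in the others. Alx1 and Shisa2 followed, and then Dkk1, a Wnt antagonist, at 54.5 CPM in the progenitors and 22.5 CPM in the others, and Apela, a ligand of the apelin receptor, at 82.2 CPM in the progenitors and 35.3 CPM in the others. Rgs5, which dampens G protein signalling, stood at 248 CPM in the progenitors and 108 CPM in the other cells.

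Among the genes below the other control cells, endothelial genes were lower in 14 of 14 measured cases, as the condition on Cdh5 selects. However, 15 of the 18 listed genes were under 5 CPM in the progenitors. Most of the measured ones therefore reached 5 CPM in the other cells only and could not have counted as higher. Ctla2a had 1.78 CPM in the progenitors and 118 CPM in the others, and Ramp2, a partner of the adrenomedullin receptor, 8.44 CPM in the progenitors and 82.0 CPM in the others. Igfbp2 stood at 17.2 CPM in the progenitors and 183 CPM in the others, Tdo2, which breaks down tryptophan, at 4.60 CPM in the progenitors and 56.8 CPM in the others, and Hoxb6 at 6.80 CPM in the progenitors and 57.2 CPM in the others. Slc2a1, the main glucose transporter of early cells, stood at 186 CPM in the progenitors and 699 CPM in the others, and Krt8, an epithelial keratin, at 259 CPM in the progenitors and 678 CPM in the others.

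The Isl1-zero counterparts share every limit except Isl1, so this comparison differs from the one above in the choice of control cells. The largest ratios among genes of at least 50 CPM were again those of Igfbpl1, with 59.7 CPM in the progenitors and 7.06 CPM in the counterparts, and of Irx5, Irx1, Crabp1 and Irx3. Igfbpl1 was found in 34.2% of thinned progenitors, against 5.89% of counterparts and 1.87% of the cells rich in endoderm genes. On the lower side stood genes of other lineages, such as Dppa5a of pluripotent cells, with 0.788 CPM in the progenitors and 188 CPM in the counterparts, and Ttr of endoderm, with 63.4 CPM in the progenitors and 484 CPM in the counterparts. These came from few cells. At least 500 CPM of endoderm genes was found in 12 progenitors (median 120480 UMIs), which held 89.5% of the progenitors' endoderm UMIs, and in 81 counterparts. Without cells rich in endoderm, pluripotent, haematopoietic or posterior mesoderm genes, 1149 progenitors and 892 counterparts remained, the number of lower genes was 168 in place of 307, and the number of higher genes was 221 in place of 228. No doublet caller was run, so the part of doublets in these 12 cells was not tested.

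Genes of the anterior second heart field stood above the counterparts in 8 of 11 measured cases, and 1 was lower, with a median log2 ratio of 0.72. Tbx1, a T-box factor of pharyngeal mesoderm, stood at 7.01 CPM in the progenitors (6.28 to 7.79) and 1.43 CPM in the counterparts (1.06 to 1.89). Prdm1, a transcriptional repressor of the same region, stood at 14.6 CPM in the progenitors and 2.57 CPM in the counterparts. Fgf10, a growth factor of this field, stood at 8.66 CPM in the progenitors and 3.27 CPM in the counterparts, and Fgf8 at 6.59 CPM in the progenitors and 3.88 CPM in the counterparts. The exception was Wnt11, a noncanonical Wnt ligand, with 3.50 CPM in the progenitors and 6.22 CPM in the counterparts. Tbx1, Prdm1, Fgf10 and Fgf8 reached 5 CPM in the progenitors only, so they could not have counted as lower. Wnt11 reached it in the counterparts only and could not have counted as higher. A Tbx1 UMI was found in 8.67% of thinned progenitors and 2.13% of thinned counterparts. Against the Actc1-high cells, 3 of 11 anterior genes were higher (Tbx1, Fgf10 and Prdm1) and 4 were lower (Fgf8, Mef2c, Wnt11 and Tdgf1), with a median of 0.03. Fgf8 stood at 6.59 CPM in the progenitors and 10.7 CPM in the Actc1-high cells.

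Pharyngeal and head mesoderm genes, a list that shares Alx1 with the leading markers, had 7 of 10 members higher, 1 lower and a median of 1.23. Ebf3 stood at 14.4 CPM in the progenitors and 3.09 CPM in the counterparts, and Tcf21, a factor of branchial muscle and epicardium, at 32.5 CPM in the progenitors and 12.9 CPM in the counterparts. Foxc1 and Foxc2, forkhead factors of head and pharyngeal mesoderm, stood at 21.2 and 17.4 CPM in the progenitors and at 6.71 and 5.54 CPM in the counterparts. Lhx2 was the lower member, with 13.8 CPM in the progenitors and 22.1 CPM in the counterparts. Ebf3 reached 5 CPM in the progenitors only, so it could not have counted as lower. Against the Actc1-high cells, 7 of 10 were higher and none was lower, with a median of 1.13. Iroquois factors were higher than in the counterparts in 4 of 4 measured cases, with a median of 2.03.

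Posterior second heart field genes were mostly within 1.5-fold, with 3 of 11 higher (Hoxa3, Meis1 and Meis2), 1 lower and a median of 0.10. Hoxa3 reached 5 CPM in the progenitors only, so it could not have counted as lower. Meis1, a partner of Hox proteins, stood at 214 CPM in the progenitors and 107 CPM in the counterparts, and Foxf1, a forkhead factor of lateral mesoderm, at 53.9 CPM in the progenitors and 109 CPM in the counterparts. Tbx5, which marks the posterior field and the first heart field, stood at 35.5 CPM in the progenitors and 32.9 CPM in the counterparts, and Nr2f2, an orphan receptor of the atria, at 67.2 CPM in the progenitors and 92.7 CPM in the counterparts. First heart field genes had 1 higher and 3 lower members of 10. Hand1 stood at 361 CPM in the progenitors and 603 CPM in the counterparts, Mab21l2 at 32.5 CPM in the progenitors and 70.8 CPM in the counterparts, and Sfrp5, which blocks Wnt ligands outside early heart cells, at 91.2 CPM in the progenitors and 139 CPM in the counterparts, while Nkx2-5, a core cardiac homeodomain factor, stood at 26.2 CPM in the progenitors and 9.80 CPM in the counterparts.

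The name cardiac progenitor was checked against cardiac transcription factors, all 18 of which were measured. Gata4, Gata6 and Hand2 stood at 127, 445 and 398 CPM in the progenitors, and at 156, 426 and 242 CPM in the counterparts. Of the 18, 6 were higher and 1 was lower than in the counterparts, with a median of 0.13. Mef2c, Myocd, Hand2 and Fgf10, which have been reported as targets of Isl1, were all higher than in the counterparts. Against all other control cells 3 of these 4 were higher, without Mef2c, and against Actc1-high cells Fgf10 was higher while Mef2c and Myocd were lower. Myocd, which coactivates muscle genes, stood at 40.1 CPM in the progenitors and 12.7 CPM in the counterparts, and Mef2c at 396 CPM in the progenitors and 250.4 CPM in the counterparts. UMIs of cardiac factors were found in the progenitors, and also in counterparts without an Isl1 UMI.

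**Figure D2:**
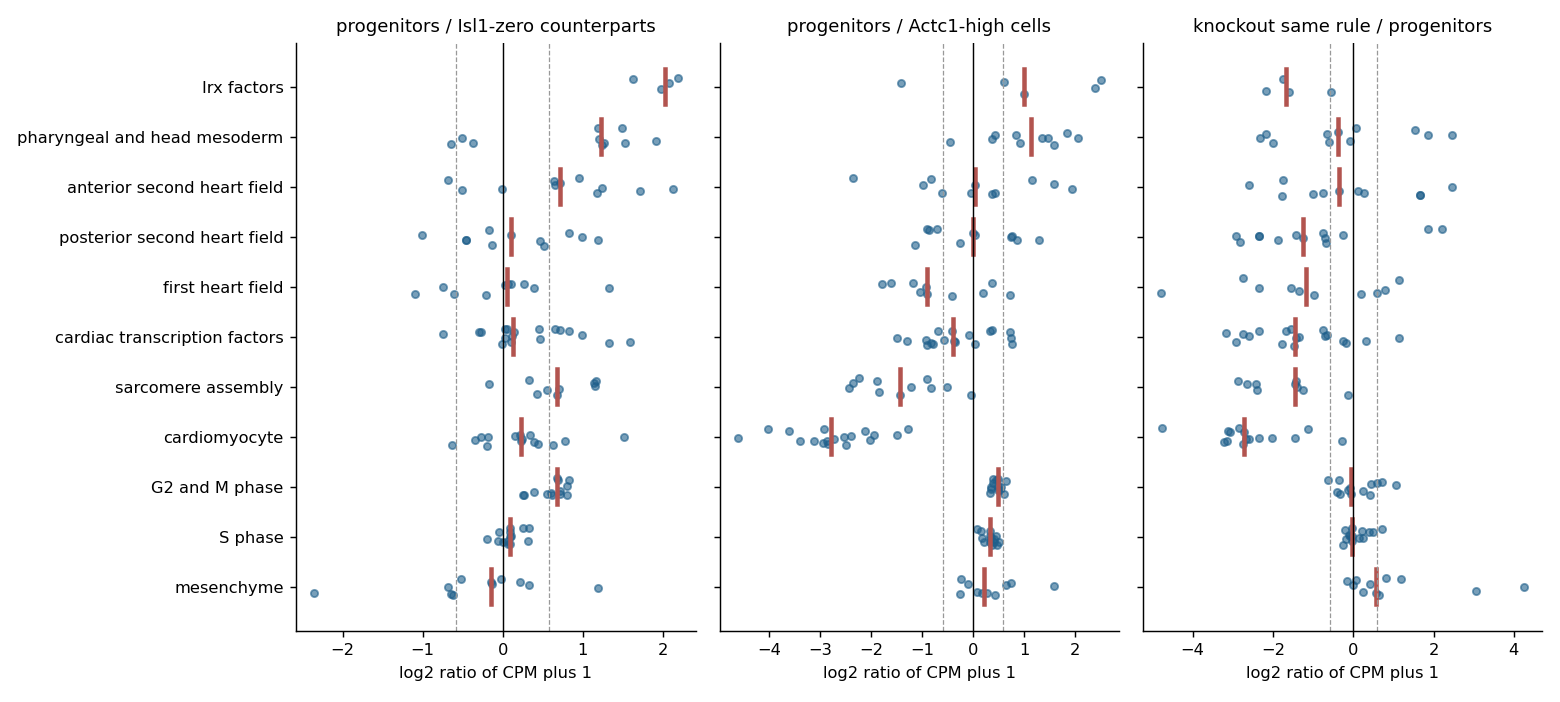
Log2 ratios of CPM plus 1 for each measured gene (points) and the median (bar) of 11 gene lists, in the Isl1 progenitors over their Isl1-zero counterparts, the progenitors over Actc1-high cells, and knockout cells picked by the same rule over the progenitors; dashed lines mark 1.5-fold. Iroquois and pharyngeal genes lie to the right in the first panel, and cardiomyocyte genes lie far to the left in the panels beside it.

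Cardiac muscle genes placed the progenitors far below the Actc1-high cells. All 18 measured cardiomyocyte genes other than Actc1 were lower, with a median of -2.79, as the limit on Actc1 would select. Of the 22 listed genes, 6 were under 5 CPM in the progenitors. Those of them that were measured, such as Myh6, reached 5 CPM in Actc1-high cells only and could not have counted as higher. Myl7, the myosin light chain of atria, stood at 857 CPM in the progenitors and 3503 CPM in the Actc1-high cells, Tnnt2, cardiac troponin T, at 270.3 CPM in the progenitors and 1527 CPM in Actc1-high cells, and Ttn, titin, at 333 CPM in the progenitors and 1283 CPM in Actc1-high cells. Genes of later muscle were lower still: Myl3 stood at 7.65 CPM in the progenitors and 211 CPM in Actc1-high cells and Myh6 at 3.17 CPM in the progenitors and 66.4 CPM in Actc1-high cells. Against the Isl1-zero counterparts, 3 of 15 muscle genes were higher (Myl7, Ttn and Myh7) and 1 was lower, with a median of 0.22. Myl7 stood at 857 CPM in the progenitors and 555 CPM in the counterparts, and Ttn at 333 CPM in the progenitors and 194 CPM in the counterparts. Sarcomere assembly genes, a list that includes Smyd1 and Rbm24, were higher than in the counterparts in 5 of 9 cases and lower than in Actc1-high cells in 9 of 11. Of the 13 genes in this list, 4 were under 5 CPM in the progenitors. Those of them measured against the Actc1-high cells could not have counted as higher.

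Within the limit, the progenitors were ranged by Actc1, itself a muscle gene of the rule, and other muscle genes stood higher where Actc1 was higher. Actc1 had no UMI in 778 progenitors, above 0 to 50 CPM in 247 and above 50 to 150 CPM in 140. Across these 3 ranges, from low to high, Myl7 stood at 645, 893 and 1811 CPM, Tnnt2 at 195, 280.0 and 613 CPM, and Ttn at 259, 328 and 702 CPM. Isl1 stood at 125, 115 and 121 CPM, which is no finding, as the rule asked at least 2 Isl1 UMIs of every cell. The cells were not thinned here, and their median UMIs were 33866, 42144 and 37875. Igfbpl1 stood at 68.6, 52.6 and 31.0 CPM and Irx3 at 113, 102 and 59.3 CPM, so both were lowest where Actc1 was highest.

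Levels were then followed over the number of Isl1 UMIs in the 2583 control cells that met the other conditions, each thinned to 15000 UMIs so that depth could not set the number. There were 1372 cells with 0, 559 with 1, 316 with 2, 168 with 3 and 168 with at least 4 Isl1 UMIs. Igfbpl1 stood at 12.9, 46.8, 58.0, 100.4 and 113 CPM in that order, Irx5 at 22.2, 53.9, 73.0, 104 and 102 CPM, and Crabp1 at 108, 214, 306, 428 and 473 CPM. For Igfbpl1 the interval with at least 4 Isl1 UMIs ran from 100.3 to 127 CPM and that with none from 11.4 to 14.5 CPM. Prdm1 stood at 4.08, 10.4, 17.5, 29.8 and 27.8 CPM. In the other direction, Hand1 stood at 552, 403, 366, 272 and 252 CPM, and Foxf1 at 103, 64.0, 69.4, 52.4 and 34.9 CPM. Tnnt2 showed no order, at 285, 296, 235, 269 and 292 CPM.

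**Figure D3:**
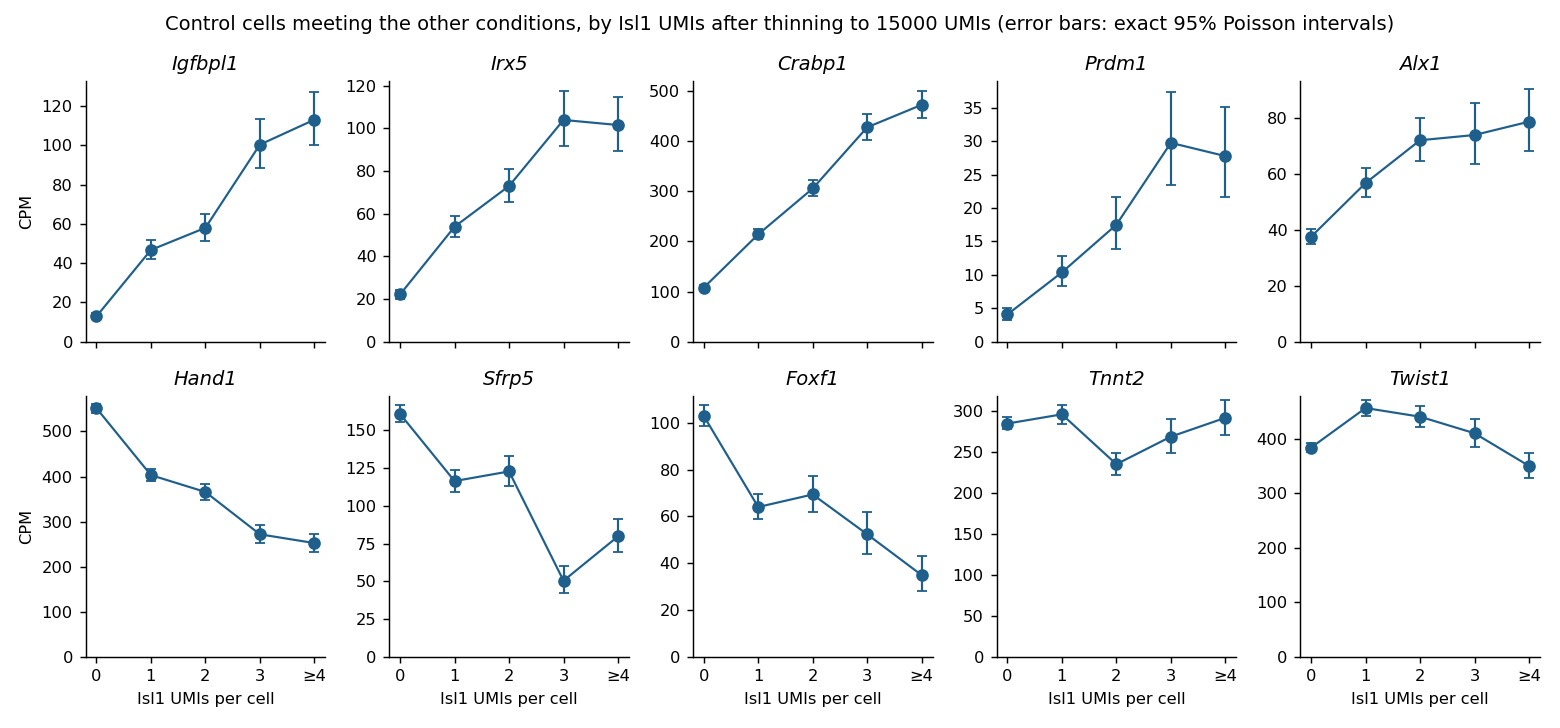
Levels of 10 genes in CPM against the number of Isl1 UMIs per cell (0, 1, 2, 3 and at least 4, after thinning to 15000 UMIs) in the 2583 control cells that met the other conditions of the rule; bars are exact 95% Poisson intervals. Igfbpl1, Irx5, Crabp1, Prdm1 and Alx1 are higher with more Isl1 UMIs, Hand1, Sfrp5 and Foxf1 are lower, and Tnnt2 and Twist1 follow no order.

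The progenitors were spread over several clusters. Control cells were clustered without the 6 genes of the rule, and 15 clusters were found, which keep their numbers and leading genes as names. The leading genes were used to form the clusters and are no result. Clusters 9 and 11, led by Igfbpl1, Cxcl14 and Irx5, were the only ones in which progenitors were the majority (263 of 414 and 177 of 274 cells), and they held 37.8% of all progenitors. Their Isl1 level over all cells was 120 CPM (115 to 125) and 134 CPM (126 to 143), which the rule itself favours in clusters with many progenitors. Most other progenitors fell in clusters led by Sfrp5, with Nr2f1 among the first 4 genes (137 in cluster 0, 173 in cluster 4, 45 in cluster 12), in cluster 2, led by Myl4, Ttn and Myl3 (187), and in cluster 1, led by Tdo2 (124). The 4 clusters led by Postn, Tdo2 and Igfbp2 had Isl1 between 3.82 and 7.92 CPM and at most 9 progenitors each.

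**Figure D4:**
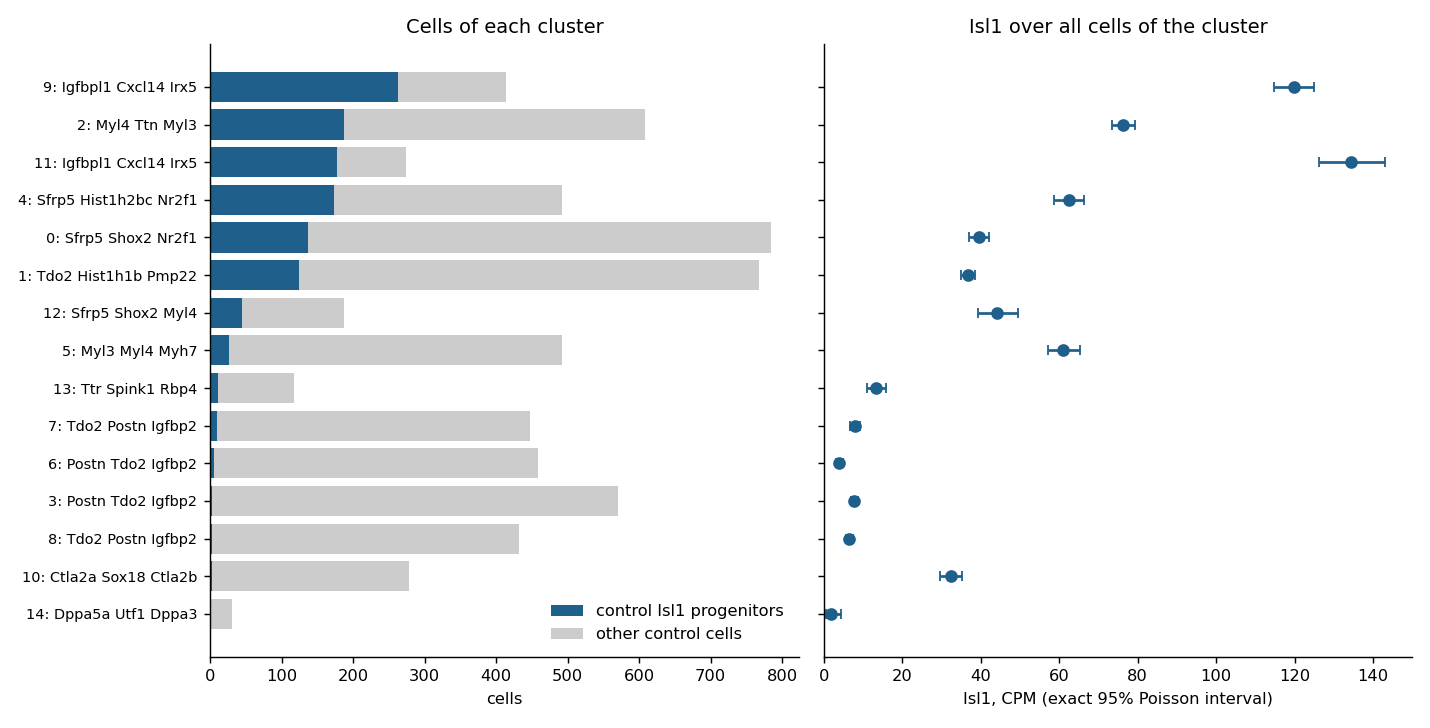
Left, the number of Isl1 progenitors and other control cells in each of 15 clusters, named by number and 3 leading genes; right, the Isl1 level in CPM over all cells of the cluster with its exact 95% Poisson interval. Clusters 9 and 11 have the largest share of progenitors, chosen by Isl1 UMIs, and cluster 14, of pluripotent genes, has 0 progenitors.

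Splitting the progenitors by Irx3 plus Irx5 UMIs after thinning set the ends of this range side by side, a split chosen after the values were seen. At least 3 such UMIs were found in 455 progenitors (Irx-high) and none in 427 (Irx-zero), and 283 cells with 1 or 2 lay between, so these are ranges and not cell types. Median UMIs were 31917 in Irx-high and 37506 in Irx-zero cells, and Isl1 stood at 159 CPM in Irx-high and 96.7 CPM in Irx-zero cells. In all, 3.44% of 10221 genes were higher and 3.07% were lower in Irx-high cells, and the median log2 ratio over all genes was 0.014.

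Irx-high progenitors had more of the pharyngeal genes. Igfbpl1 stood at 128 CPM in them and 8.18 CPM in Irx-zero cells, Cxcl14, a chemokine, at 29.6 CPM in Irx-high and 1.82 CPM in Irx-zero cells, and Col9a2, a collagen of cartilage, at 65.7 CPM in Irx-high and 6.61 CPM in Irx-zero cells. Prdm1 stood at 29.9 CPM in Irx-high and 2.76 CPM in Irx-zero cells, Ebf3 at 30.4 CPM in Irx-high and 2.81 CPM in Irx-zero cells, Tlx1, a homeodomain factor of branchial arches and spleen, at 59.6 CPM in Irx-high and 9.17 CPM in Irx-zero cells, and Crabp1 at 562 CPM in Irx-high and 93.7 CPM in Irx-zero cells. Tbx1, at 13.3 CPM in Irx-high and 1.77 CPM in Irx-zero cells, Fgf8, at 12.6 CPM in Irx-high and 2.14 CPM in Irx-zero cells, and Fgf10, with a log2 ratio of 2.03, were higher too. In all, 7 of 10 pharyngeal and head mesoderm genes were higher and 0 were lower. Of 10 anterior second heart field genes, 6 were higher and 2 were lower. The lower ones were Mef2c, at 182 CPM in Irx-high and 594 CPM in Irx-zero cells, and Tdgf1, at 3.95 CPM in Irx-high and 8.91 CPM in Irx-zero cells. Tbx1, Fgf8, Fgf10, Prdm1 and Ebf3 reached 5 CPM in Irx-high cells only, so they could not have counted as lower. Tdgf1 reached it in Irx-zero cells only and could not have counted as higher.

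Irx-zero progenitors had more of the muscle genes. All 15 measured cardiomyocyte genes were lower in Irx-high than in Irx-zero cells, with a median of -1.49: Tnnt2 stood at 121 CPM in Irx-high and 431 CPM in Irx-zero cells and Myl4 at 26.3 CPM in Irx-high and 135 CPM in Irx-zero cells. Of these genes, Csrp3, Mybpc3, Pln, Ldb3 and Myl3 reached 5 CPM in Irx-zero cells only, so they could not have counted as higher. Sfrp5 stood at 20.8 CPM in Irx-high and 167 CPM in Irx-zero cells, Shox2, a factor of the sinus node region, at 0.779 CPM in Irx-high and 8.02 CPM in Irx-zero cells, and Mab21l2 at 8.32 CPM in Irx-high and 57.4 CPM in Irx-zero cells. Tbx5, Tbx20 and Gata4 stood at 15.3, 31.4 and 57.7 CPM in Irx-high cells and at 55.9, 119 and 191 CPM in Irx-zero cells. Smyd1 and Rbm24 stood within 1.5-fold, at 86.6 and 177 CPM in Irx-high and 126 and 245 CPM in Irx-zero cells, whereas Alx1, at 81.6 CPM in Irx-high and 34.3 CPM in Irx-zero cells, and Dach1, at 70.0 CPM in Irx-high and 24.6 CPM in Irx-zero cells, went with the Irx genes. The furthest below were Ttr and Spink1, endoderm genes at 2.64 and 3.17 CPM in Irx-high and 146 and 153 CPM in Irx-zero cells, and 12 progenitors rich in endoderm genes hold 89.5% of the UMIs of that list over all progenitors.

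**Figure D5:**
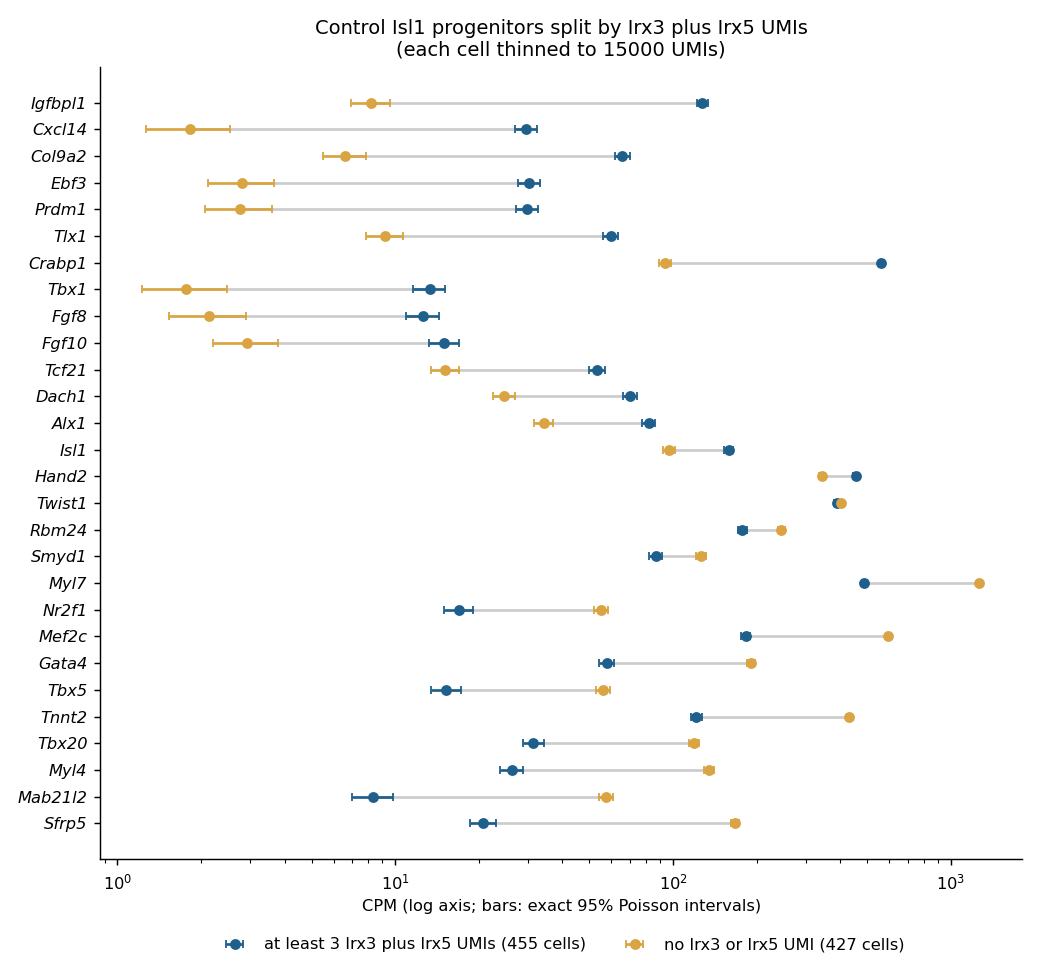
Levels in CPM on a log axis of 28 genes in Irx-high progenitors (blue, 455 cells) and Irx-zero progenitors (yellow, 427 cells), ordered by their ratio, with exact 95% Poisson intervals. Genes at the top, from Igfbpl1 to Alx1, stand higher in Irx-high cells, those at the bottom, from Myl7 to Sfrp5, stand lower, and the points of Twist1 lie together.

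The knockout library was read by the same rule. Zbtb16, the targeted gene, stood at 2.83 CPM in the 290 knockout cells (1.89 to 4.06, 29 UMIs) and at 24.0 CPM in the progenitors (22.6 to 25.4), close to the 21.9 CPM of the other control cells. Among cells that met the other conditions, 10.3% of 2813 knockout cells and 45.1% of 2583 control cells had at least 2 Isl1 UMIs, with medians of 3 and 4 Isl1 UMIs in the cells picked. Free RNA held 10.6 CPM of Isl1 in the knockout library and 42.5 CPM in the control, and its part in these shares was not tested. In this comparison of 2 libraries, 13.0% of 10368 genes were higher and 8.37% were lower in the knockout cells, with a median of 0.018 over all genes tested. The knockout cells together held 10259065 UMIs.

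Knockout cells with Isl1 stood below the progenitors for the leading markers and for most cardiac and muscle genes. Alx1, Smyd1, Rbm24, Dach1 and Irx5 were lower in 5 of 5 cases, with a median of -2.31. As markers of the progenitors chosen from these same data, they favour this direction, and the count is a description only. Irx5 stood at 21.2 CPM in the knockout cells (18.4 to 24.2) and 65.9 CPM in the progenitors, Rbm24 at 28.2 CPM in knockout cells and 212 CPM in the progenitors and Dach1 at 9.07 CPM in knockout cells and 45.4 CPM in the progenitors. Igfbpl1 stood at 4.87 CPM in the knockout cells and 59.7 CPM in the progenitors. Anterior second heart field genes were mixed, with 5 of 11 lower, 3 higher and a median of -0.36, and so were pharyngeal and head mesoderm genes, with 5 of 11 lower, 3 higher and a median of -0.39. Irx3 stood at 69.6 CPM in knockout cells and 103 CPM in the progenitors, within 1.5-fold. An Irx3 UMI was found in 56.9% of thinned knockout cells and 56.7% of thinned progenitors, and 2 or more in 27.6% and 38.9%. Of 18 cardiac transcription factors 14 were lower, with Gata5, a zinc finger factor of early heart, at 27.9 CPM in knockout cells and 219 CPM in the progenitors, Mef2c at 64.1 CPM in knockout cells and 396 CPM in the progenitors and Nkx2-5 at 3.02 CPM in knockout cells and 26.2 CPM in the progenitors. Of 15 cardiomyocyte genes 14 were lower, with Myl7 at 30.8 CPM in knockout cells and 857 CPM in the progenitors. Under 5 CPM in the knockout cells were 12 of the 22 listed cardiomyocyte genes and 3 of the 18 cardiac factors, Nkx2-5 among them. Those of them that were measured reached 5 CPM in the progenitors only and could not have counted as higher. Hand1 was the cardiac factor that stood higher, at 794 CPM in the knockout cells and 361 CPM in the progenitors. Sfrp5 had the lowest ratio of all named genes, with 2.34 CPM in knockout cells and 91.2 CPM in the progenitors, followed by Myl7 and by the imprinted gene Mest, with 94.2 CPM in knockout cells and 1015 CPM in the progenitors.

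Posterior mesoderm genes stood above the progenitors. All 11 measured members were higher, with a median of 4.56. However, all 13 genes of the list were under 5 CPM in the progenitors. The 11 were therefore measured through the knockout cells alone and could not have counted as lower. Pitx1, a hind limb homeodomain factor, stood at 120 CPM in the knockout cells and 1.72 CPM in the progenitors, Cdx2, a factor of the posterior body, at 87.6 CPM in knockout cells and 0.850 CPM in the progenitors, and Hoxc8 at 54.5 CPM in knockout cells and 0.373 CPM in the progenitors. At least 500 CPM of these genes was found in 102 of the 290 knockout cells (35.2%) and in 2 of the 1165 progenitors. The other 188 knockout cells had 43.5 CPM of Myl7, 90.0 CPM of Mef2c and 4.85 CPM of Igfbpl1, all still below the progenitors. Without cells rich in posterior, endoderm, pluripotent or haematopoietic genes, 183 knockout cells and 1149 progenitors remained, and the median of the leading markers was -1.91, that of the cardiomyocyte genes -2.60 and that of the posterior genes 1.60. Haemoglobin genes were the largest ratios, with Hba-x at 250.3 CPM in the knockout cells and no UMI in the progenitors, but 1 knockout cell held 96.0% of the UMIs of the haematopoietic list. Mesenchyme genes were higher in 5 of 11 cases and within 1.5-fold in 6, with Col1a1, a fibrillar collagen, at 144 CPM in knockout cells and 16.5 CPM in the progenitors, while Twist1, at 363 CPM in knockout cells and 405 CPM in the progenitors, and Prrx1, at 55.6 CPM in knockout cells and 52.7 CPM in the progenitors, were within 1.5-fold.

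In knockout cells meeting the other conditions, Pitx1 and Cdx2, chosen after their values were seen, were followed over Isl1 UMIs. Over 0, 1, 2, 3 and at least 4 Isl1 UMIs after thinning (2415, 253, 80, 37 and 28 cells), Pitx1 stood at 34.3, 74.3, 162, 166 and 188 CPM and Cdx2 at 22.3, 49.8, 62.5, 105 and 129 CPM. Igfbpl1 stayed at 7.21 CPM or less in all 5 ranges, with counts of few UMIs. Hand2, a basic helix-loop-helix factor of heart and limb, stood at 143, 232, 289, 232 and 352 CPM, and in control cells at 320, 401, 445, 439 and 481 CPM.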

How the data were processed

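Single-cell RNA was read from 1 control and 1 Zbtb16 knockout library, prepared with a DNBelab C Series kit per the labels' protocols. The authors deposited unfiltered matrices of raw UMI counts, written by Cell Ranger 4 per the file headers. The submitters' processing notes name R 4.1.1 and, as builds, both GRCm39 and mm39. All 32285 features were read and 0 other columns of samples were present. Cells, groups and sums were formed as the report says, with a prior of 1 CPM. In all, 357324373 UMIs were in the knockout and 308465930 in the control library. Genes named are the 12 largest ratios in each direction at 50 CPM or more, without predicted, ribosomal protein and mitochondrial genes and the genes of the rule, the leading markers, up to 4 genes of each list by mean CPM and 2 by ratio, Zbtb16 and the Igf2bp genes; further list members, the Irx split, the cluster genes and the genes followed over Isl1 UMIs were chosen after their values were seen. Members and lists were chosen with earlier results of these data known. Thinning used a fixed random seed. Clusters used scanpy 1.11.5 and leidenalg 0.10.2 on 2000 variable genes, 30 components, 15 neighbours and resolution 1. Alternatives used edgeR 4.0.16 for TMM scaling. The summing was tested on simulated data. Doublets were not removed. No test was made, as a group has 1 library.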

Additional observations from a re-analysis of the deposited data

How the results depend on the processing

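No paired analysis was possible because both genotypes have a single library. The share of progenitors among control cells was 17.0% at a minimum of 30000 UMIs, 19.5% at 5% mitochondrial UMIs, 25.1% with at least 1 Isl1 UMI, 13.8% with at least 3, 10.3% with at least 2 after thinning to 15000 UMIs, 17.0% below 75 CPM of Actc1 and 19.3% below 300 CPM, against 18.3%. Counts of genes past 1.5-fold depended on the prior and the filter. With a prior of 5 CPM, 135, 149 and 130 genes were higher in the progenitors than in the other control cells, the Isl1-zero counterparts and the Actc1-high cells, in place of 222, 228 and 225, and 548 genes were lower in the knockout cells, in place of 868. Without a filter, 595 and 651 genes were lower in the progenitors than in the other cells and the counterparts, in place of 368 and 307, 359 were higher than in Actc1-high cells, and 1428 were lower in the knockout cells. With a filter at 20 CPM, 99 were higher and 175 lower than in the other cells, 114 and 128 than in the counterparts, 106 and 243 than in Actc1-high cells, and 896 and 390 in the knockout cells, in place of 1346 and 868, because fewer genes were tested. With equal weight per cell, 386 genes were higher than in Actc1-high cells, and the cause was not tested.

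Other alternatives were added after seeing the data. Without the barcodes shared by both libraries no count moved by over 1.5 times. Without cells rich in genes of other lineages, 168 genes were lower than in the counterparts, and values changed sign for Ctsh (0.60) and Cited1 (0.34) against the counterparts, for the medians of the pluripotent (0.070) and neural lists (0.086) there, for those of the endoderm (0.035) and pluripotent lists (0.0031) against the other control cells, and for the Hox list in the knockout cells (-0.17), and the cause was not tested. A change of sign was counted only for values past 1.5-fold in the main analysis, and the 7 above were those. Of the other recomputed gene ratios and list medians over all settings, 3670 stayed within their interval and 967 left it. Sign changes of values that began within 1.5-fold are among these and were not counted apart. Scaling by TMM or median of ratios moved the median of all genes by between -0.052 and -0.0016 (log2). Depth limits genes near 5 CPM, as the intervals show.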

Other observations

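Signalling genes not described above set the progenitors apart from their Isl1-zero counterparts in a few members only. Of 13 measured retinoic acid genes 3 were higher and 3 lower, with a median log2 ratio of -0.09 against 0.026 over all genes. Stra6, a receptor that takes up retinol, stood at 14.8 CPM in the progenitors and 5.72 CPM in the counterparts, and Rarb, a retinoic acid receptor and known target of the pathway, at 21.5 CPM in the progenitors and 9.86 CPM in the counterparts. Cyp26a1, which degrades retinoic acid, stood at 4.04 CPM in the progenitors and 9.43 CPM in the counterparts. Of 16 BMP genes 14 were within 1.5-fold, with Bmp7 at 43.6 CPM in the progenitors and 20.3 CPM in the counterparts and Msx1, a homeodomain target, at 114 CPM in the progenitors and 184 CPM in the counterparts. Of 11 FGF genes 3 were higher and 1 lower.

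G2 and M phase genes were higher than in the counterparts in 9 of 13 cases, with a median of 0.68, as Ube2c at 511 CPM in the progenitors and 292 CPM in the counterparts, whereas 14 of 14 S phase genes were within 1.5-fold. Against all other control cells 1 of 13 G2 and M phase genes was higher, with a median of 0.31, and against Actc1-high cells 2 of 13, with a median of 0.48. The progenitors had more UMIs per cell than the counterparts, with medians of 35418 in the progenitors and 30049 in the counterparts, and after thinning by Isl1 UMIs Top2a, a mitotic topoisomerase, stood at 321, 405, 403, 485 and 521 CPM over 0, 1, 2, 3 and at least 4 Isl1 UMIs. The part of depth in this was not tested further. Of 11 measured Hox genes of groups 1 to 8, 2 were higher (Hoxa2 and Hoxa3), 3 were lower (Hoxb6, Hoxb7 and Hoxb8) and 6 were within 1.5-fold. Hoxa3 reached 5 CPM in the progenitors only, so it could not have counted as lower. Hoxa2 stood at 19.9 CPM in the progenitors and 7.09 CPM in the counterparts, Hoxa3 at 7.75 CPM in the progenitors and 2.83 CPM in the counterparts and Hoxb6 at 6.80 CPM in the progenitors and 33.9 CPM in the counterparts, while Hoxb1, at 157 CPM in the progenitors and 173 CPM in the counterparts, was within 1.5-fold. Zbtb16 and the RNA-binding Igf2bp genes were within 1.5-fold in 4 of 4 cases, with Zbtb16 at 24.0 CPM in the progenitors and 22.2 CPM in the counterparts.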
